A study of Mus musculus with 8 samples.

Results

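Nucleoside transporters and the enzymes that activate, inactivate or oppose the nucleoside analogue gemcitabine were described here across mouse pancreatic tumours with and without floxed Lifr alleles. The group held 10 genes, taken by symbol from the 24537 genes of the raw count table: the concentrative transporters Slc28a1, Slc28a2 and Slc28a3, the equilibrative transporters Slc29a1, Slc29a2 and Slc29a3, the kinase Dck, the deaminases Cda and Dctd, and the ribonucleotide reductase subunit Rrm2b. RNA was sequenced from cells sorted by FACS for the epithelial surface protein EpCAM out of 8 freshly dissociated tumours, with 1 library per tumour. All mice were FVB/NJ, 44 to 49 days old, and carried KrasLSL-G12D/+, Trp53f/f, Rosa26LSL-Luc and Pdx1-Cre. The 4 tumours labelled KO were Lifrf/f, and of the 4 labelled WT, replicates 1 and 2 were Lifrf/+ and replicates 3 and 4 were Lifr+/+. The question set by the title was how expression in these cancer cells differs when Lifr, a receptor subunit for leukaemia inhibitory factor, is lost. Pdx1-Cre is used to recombine floxed alleles in the pancreatic epithelial lineage, and recombination in other cells of these samples was not tested. The labels give neither the floxed exons nor a recombination check, and they name no drug treatment.

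Gemcitabine is a deoxycytidine analogue that cannot cross membranes freely and enters cells through nucleoside transporters. The SLC28 proteins carry nucleosides inward against a gradient together with sodium, whereas the SLC29 proteins let them equilibrate across the membrane. Inside the cell, deoxycytidine kinase adds the phosphate that commits the drug to activation, cytidine deaminase inactivates it, dCMP deaminase acts on its monophosphate, and its diphosphate inhibits ribonucleotide reductase. Pancreatic cancer is a main clinical use of the drug.

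Of the 10 genes, 9 had enough counts to test, and 3 were higher in the tumours labelled KO: Slc28a2 by 4.17-fold, Slc29a3 by 1.83-fold and Dck by 1.52-fold. No member was called lower, and 6 did not pass the test (edgeR quasi-likelihood test, Benjamini-Hochberg adjusted p under 0.05 over all 14728 genes tested). The same 3 genes were those whose 4 KO values lay wholly outside the 4 WT values. Over all genes tested, 21.8% were called, 11.1% higher and 10.8% lower, and 25.5% had groups that did not overlap. Of the 3216 genes called, 1630 were higher. This balance depended on the scaling, since the share of called genes that were higher fell to 22.5% with library totals alone and to 24.2% with limma on log2(FPKM + 1). The median log2 fold change was 0.027 over the 9 members and 0.011 over all genes tested.

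The RefSeq promoter windows of the 3 called genes are shown because their base composition and short motifs differ. Each window runs from 250 bases before the start site to 50 after it, 5′ to 3′ on the gene's strand, in build GRCm38.p6. Capitals mark matches on either strand to a STAT motif (TTCNNNGAA) or to an ETS motif that the myeloid factor PU.1 can bind (GAGGAA). They also mark the CCAAT box, searched by the letters of its name. Capitals mark the GC box too, searched as GGGCGG.
Slc28a2 (chr2:122426185-122426484, plus strand): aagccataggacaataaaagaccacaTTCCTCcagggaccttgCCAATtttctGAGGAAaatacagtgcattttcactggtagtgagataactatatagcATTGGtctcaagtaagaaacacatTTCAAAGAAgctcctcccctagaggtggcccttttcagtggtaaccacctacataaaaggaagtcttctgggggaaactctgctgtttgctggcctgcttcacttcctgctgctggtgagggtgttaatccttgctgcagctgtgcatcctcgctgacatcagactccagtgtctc
Slc29a3 (chr10:60752733-60753032, minus strand): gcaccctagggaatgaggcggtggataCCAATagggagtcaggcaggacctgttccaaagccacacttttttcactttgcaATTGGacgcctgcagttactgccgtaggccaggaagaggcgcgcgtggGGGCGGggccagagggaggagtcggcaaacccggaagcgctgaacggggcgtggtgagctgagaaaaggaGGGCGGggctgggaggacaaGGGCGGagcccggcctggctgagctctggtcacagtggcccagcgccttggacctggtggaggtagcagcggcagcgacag
Dck (chr5:88764763-88765062, plus strand): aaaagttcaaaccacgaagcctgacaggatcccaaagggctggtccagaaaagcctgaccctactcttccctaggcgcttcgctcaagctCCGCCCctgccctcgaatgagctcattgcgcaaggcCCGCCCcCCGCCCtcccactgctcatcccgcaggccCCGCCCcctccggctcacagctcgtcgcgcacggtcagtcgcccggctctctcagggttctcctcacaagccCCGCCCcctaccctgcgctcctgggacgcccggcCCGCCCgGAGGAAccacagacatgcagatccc
The Slc28a2 window had a GC content of 46.7% and 1 CpG, below the medians of 52.7% and 7 CpG over all 32851 windows in the RefSeq table. The Slc29a3 window had 64.3% GC and 18 CpG, and the Dck window 67.0% GC and 23 CpG. The Slc28a2 window held 1 STAT match, at -126 from the start site, 2 ETS matches (at -224 and -197) and 2 CCAAT boxes, and no GC box. The counted Slc28a2 transcript starts at 122426477, inside this window, so these positions refer to another annotated start than that of the counted transcript. The Slc29a3 window held 3 GC boxes, at -121, -51 and -31, and 2 CCAAT boxes. The Dck window held 6 GC boxes on the opposite strand, between -160 and 19, and 1 ETS match at 26. Across all windows, both strands searched, 8.30% held the STAT motif, 28.3% the ETS motif, 37.4% a CCAAT box and 35.7% a GC box. The table had windows for 9 of the 10 members, 18 in all, and the STAT match of Slc28a2 was the 1 such match among them. Motifs labelled IRF (GAAANNGAA) and E2F (TTTGGCGC and TTTCGCGC) were also searched and matched 0 of these 18. Their shares over all windows were 8.56%, 0.514% and 0.323%. An E-box (CACGTG) matched 1 of the 18, for Slc29a1, against 7.15% of all windows. These matches describe letters in the windows, not sites that a factor was shown to occupy.

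**Figure D1:**
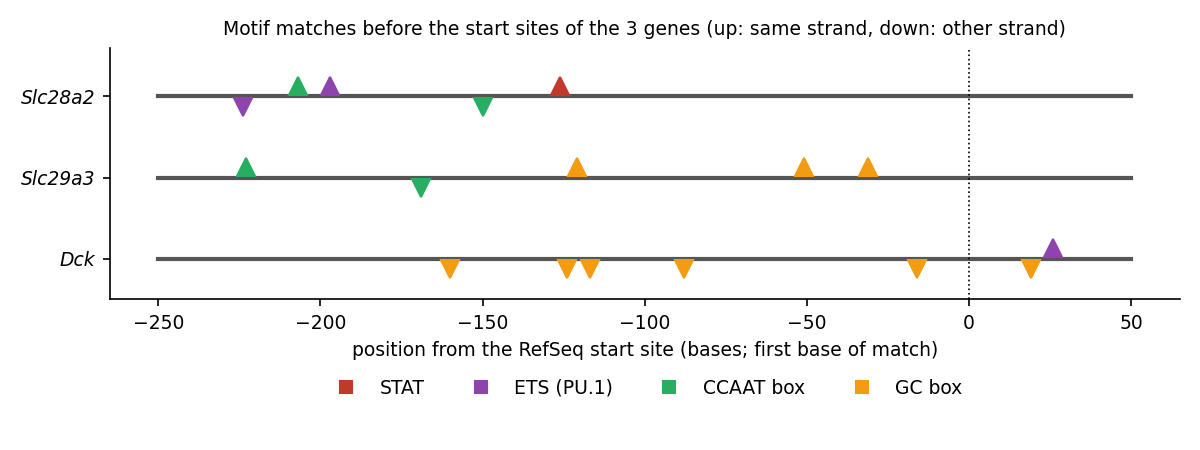
Positions of motif matches in the promoter windows of Slc28a2, Slc29a3 and Dck, in bases from the RefSeq start site (horizontal axis; first base of each match; triangles up for the gene's strand, down for the other). Colours give the motif: GC boxes are seen in Slc29a3 (3) and Dck (6) but not in Slc28a2, which holds the STAT match at -126.

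Library facts that touch every value were as follows. Counts in genes summed to 14938875 to 22698340 per tumour. Lifr itself was higher in the tumours labelled KO, at 183 ± 34.5 CPM (counts per 1000000, scaled by TMM; SD, n = 4) against 97.8 ± 22.2 (SD, n = 4), with a log2 fold change of 0.90 ± 0.19 (SE) and an adjusted p of 0.0121 (edgeR). This goes against the label, and counts over the whole transcript need not fall when a floxed exon is lost, so groups are called by their labels throughout. Epcam, the protein of the sort, was present in every library but lower in those labelled KO, at 421 ± 57.7 against 775 ± 96.5 CPM (SD, n = 4 each), with a log2 fold change of -0.88 ± 0.13 (SE). Of 20 epithelial markers, 15 were called lower, and their summed level was 4058 to 5628 CPM under the label KO against 7503 to 10064 in those labelled WT. Of 16 macrophage markers, 15 were called higher, with a summed level of 23006 to 30055 against 8762 to 15929 CPM. Of 8 pan-leukocyte markers, 7 were called higher, at 3504 to 4139 against 1619 to 2454 CPM. Fibroblast markers summed to 768 to 4241 against 409 to 1523 CPM (2 of 10 called higher) and neutrophil markers to 82.2 to 126 against 56.5 to 81.4 CPM (1 of 7 tested called higher). The called neutrophil marker, Csf3r, averaged 63.2 CPM of a mean sum of 101 under the label KO, and 28.9 of 71.5 under WT. Of the uncalled ones, S100a9, Cxcr2, Retnlg and Ngp had log2 fold changes above 0, and S100a8 (-0.29) and Mmp8 (-1.12) below 0. No marker of T and NK cells, B cells, endothelium, islets or acini was called by edgeR, though 3 islet, 3 acinar and 1 B cell markers had an unadjusted p under 0.05. The acinar gene Amy2a5 was at 0 counts in every tumour. In these bulk samples, fewer cells of a type and less RNA per cell cannot be told apart.

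Slc28a2 encodes a sodium-coupled carrier that prefers purine nucleosides and also takes uridine. It lies on chromosome 2 (mm10, 122426477 to 122461130, plus strand), and its window above is the one poor in GC and CpG. The tumours labelled KO had 22.3, 34.2, 26.9 and 31.1 CPM (replicates 1 to 4), and those labelled WT had 8.91, 7.17, 3.41 and 7.95 CPM. Every KO value was above every WT value, and the lowest of the 8 was a +/+ tumour, WT replicate 3. The means were 28.6 ± 5.19 and 6.86 ± 2.41 CPM (SD, n = 4 each), and the log2 fold change was 2.06 ± 0.28 (SE, 95% interval 1.43 to 2.70; edgeR adjusted p = 0.0044). It rested on 76 to 665 counts per tumour.

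Slc28a3, on chromosome 13 (58553308 to 58610877, minus strand), encodes the carrier of broad selectivity, which takes pyrimidine and purine nucleosides and gemcitabine. It was measured at 43.0, 35.7, 46.8 and 29.2 CPM in the tumours labelled KO and at 38.4, 50.5, 42.4 and 69.8 CPM in those labelled WT. The ranges overlapped, with the highest value in the +/+ tumour WT replicate 4. The log2 fold change was -0.38 ± 0.21 (SE, 95% interval -0.86 to 0.10; edgeR adjusted p = 0.232). Slc28a1, the pyrimidine-preferring carrier on chromosome 7 (81114799 to 81170416, plus strand), had 7 counts over all 8 tumours and at most 2 in any. No library exceeded the limit of 3 counts that a count of 0 allows, so no fold is given, and the gene was not tested. Per kilobase of transcript, the ratio of Slc28a2 to Slc28a3 was 0.606 to 1.25 under the label KO against 0.0940 to 0.271 in those labelled WT, with no overlap.

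Slc29a1 encodes the equilibrative transporter of the plasma membrane that carries gemcitabine into many cell types. It lies on chromosome 17 (45585200 to 45593640, minus strand). It had 122, 93.6, 105 and 126 CPM in the tumours labelled KO and 106, 70.7, 92.4 and 99.0 CPM in those labelled WT. The groups overlapped, and the lowest value belonged to the f/+ tumour WT replicate 2. The log2 fold change was 0.28 ± 0.14 (SE, 95% interval -0.04 to 0.61; edgeR adjusted p = 0.192).

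Slc29a2, the second plasma membrane transporter of the equilibrative family, lies on chromosome 19 (5024006 to 5031972, plus strand). It was low, at 3.95 to 5.76 CPM under the label KO against 4.38 to 7.78 CPM in those labelled WT, and these ranges overlapped. Its log2 fold change was -0.18 ± 0.24 (SE, 95% interval -0.72 to 0.36; edgeR adjusted p = 0.617).

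Slc29a3 differs from both in that its product sits in lysosomes and other inner membranes, where it releases nucleosides from degraded nucleic acids. Its locus is on chromosome 10 (60712072 to 60752782, minus strand), behind a window with 3 GC boxes. It had 119, 125, 108 and 107 CPM in the tumours labelled KO and 67.6, 56.0, 48.9 and 79.2 CPM in those labelled WT. All 4 KO values were above all 4 WT values, and the KO values lay close together. The means were 115 ± 8.93 and 62.9 ± 13.3 CPM (SD, n = 4 each), and the log2 fold change was 0.87 ± 0.15 (SE, 95% interval 0.54 to 1.20; edgeR adjusted p = 0.00656). The ratio of Slc29a1 to Slc29a3 per kilobase was 1.88 to 2.97 under the label KO against 3.15 to 4.76 in those labelled WT, again without overlap.

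**Figure D2:**
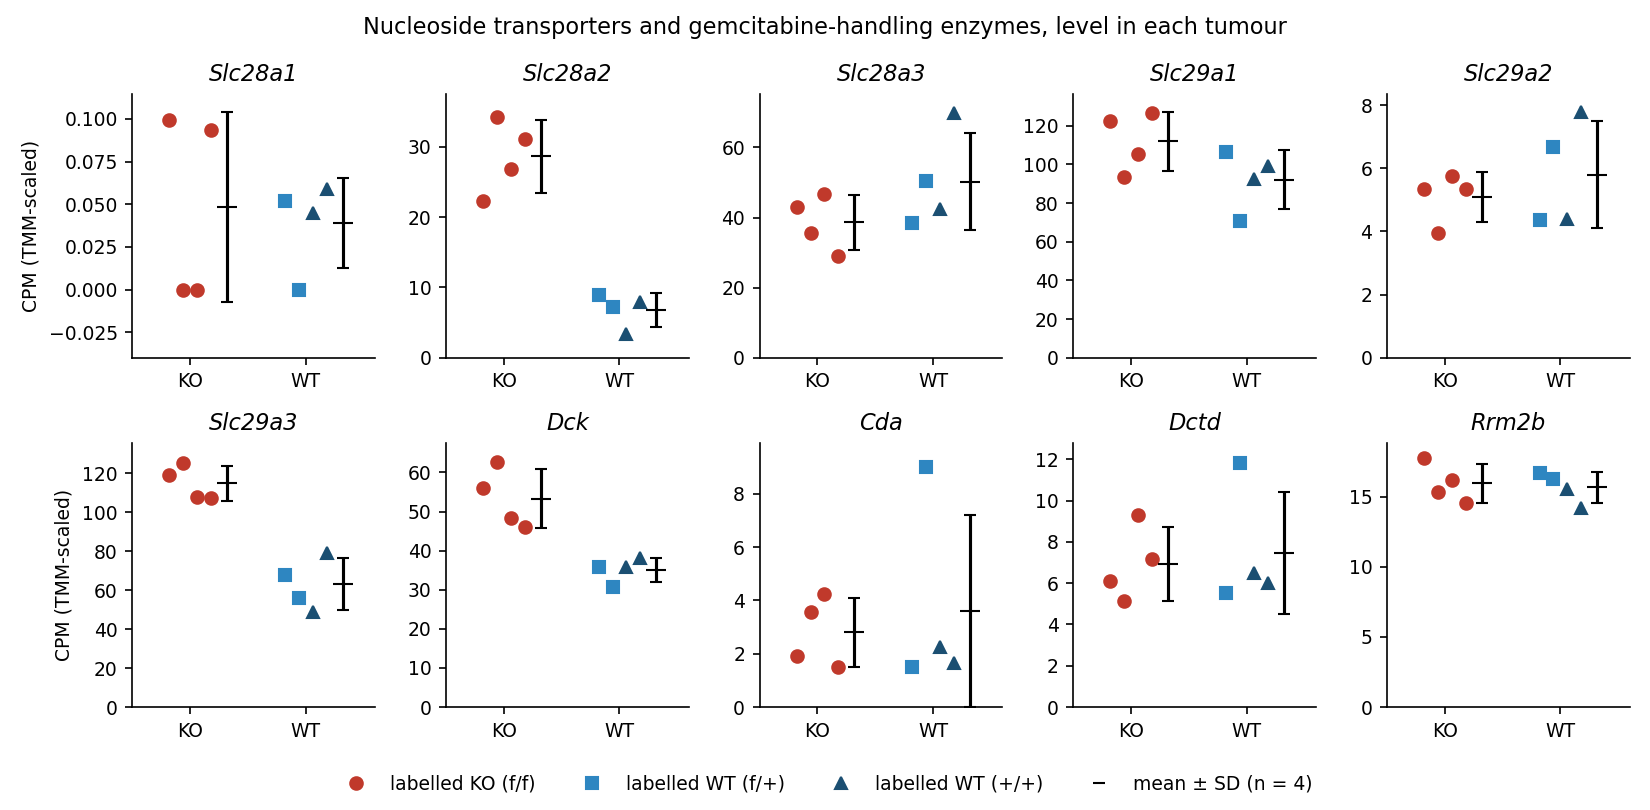
Level of each of the 10 genes in every tumour (TMM-scaled CPM, vertical axes differ between panels), with circles for tumours labelled KO, squares for f/+ and triangles for +/+ tumours labelled WT, and bars for the mean ± SD (n = 4). Slc28a2, Slc29a3 and Dck separate the groups, Cda and Dctd have 1 high WT tumour each, and the Slc28a1 panel shows 0 to 2 counts per tumour.

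Dck encodes deoxycytidine kinase, which phosphorylates deoxycytidine, deoxyadenosine and deoxyguanosine as well as gemcitabine and cytarabine. It lies on chromosome 5 (88765013 to 88783277, plus strand), with a GC-rich window. It had 56.0, 62.8, 48.3 and 46.2 CPM in the tumours labelled KO and 35.9, 30.7, 35.8 and 38.1 CPM in those labelled WT. The groups did not overlap, and the values nearest to each other were those of KO replicate 4 and WT replicate 4. The means were 53.3 ± 7.60 and 35.1 ± 3.13 CPM (SD, n = 4 each), and the log2 fold change was 0.60 ± 0.12 (SE, 95% interval 0.34 to 0.87; edgeR adjusted p = 0.00952).

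Cda, on chromosome 4 (138338528 to 138367955, minus strand), encodes the deaminase that converts cytidine, deoxycytidine and gemcitabine to their uridine forms. It had 1.93, 3.55, 4.24 and 1.50 CPM in the tumours labelled KO and 1.51, 8.99, 2.24 and 1.65 CPM in those labelled WT. The groups overlapped fully, and the high value of WT replicate 2 set the WT mean. The log2 fold change was -0.38 ± 0.63 (SE, 95% interval -1.81 to 1.06; edgeR adjusted p = 0.706), and without WT replicate 2 it was 0.62. The ratio of Dck to Cda per kilobase was 3.01 to 8.12 under the label KO against 0.900 to 6.27 in those labelled WT, and these ranges overlapped.

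Dctd, on chromosome 8 (48109958 to 48141667, plus strand), encodes dCMP deaminase, which turns dCMP into the dUMP used for thymidylate. It had 6.09, 5.11, 9.30 and 7.16 CPM in the tumours labelled KO and 5.52, 11.8, 6.50 and 6.01 CPM in those labelled WT. The highest of the 8 was again WT replicate 2, and the groups overlapped. The log2 fold change was -0.11 ± 0.29 (SE, 95% interval -0.77 to 0.54; edgeR adjusted p = 0.812), and without WT replicate 2 it was 0.20. The count table holds this gene on a non-coding transcript and the FPKM table on a coding one.

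The 2 deaminase genes shared their highest tumour, which also stood apart in acinar markers. The summed level of the 12 acinar genes was 8269 CPM in WT replicate 2 and 420 to 955 CPM in the other 3 tumours labelled WT. Among the tumours labelled KO it was 39529, 8019, 24696 and 1787 CPM. KO replicate 1, with the most acinar RNA, had 1.93 CPM of Cda and 6.09 CPM of Dctd, below the values of WT replicate 2. KO replicate 3, at 24696 CPM of acinar markers, had the highest Cda and Dctd under the label KO, at 4.24 and 9.30 CPM. KO replicate 4, with the least acinar RNA of that label, had its lowest Cda, 1.50 CPM, but its lowest Dctd, 5.11 CPM, was in KO replicate 2. The part of acinar RNA in these values was not tested.

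**Figure D3:**
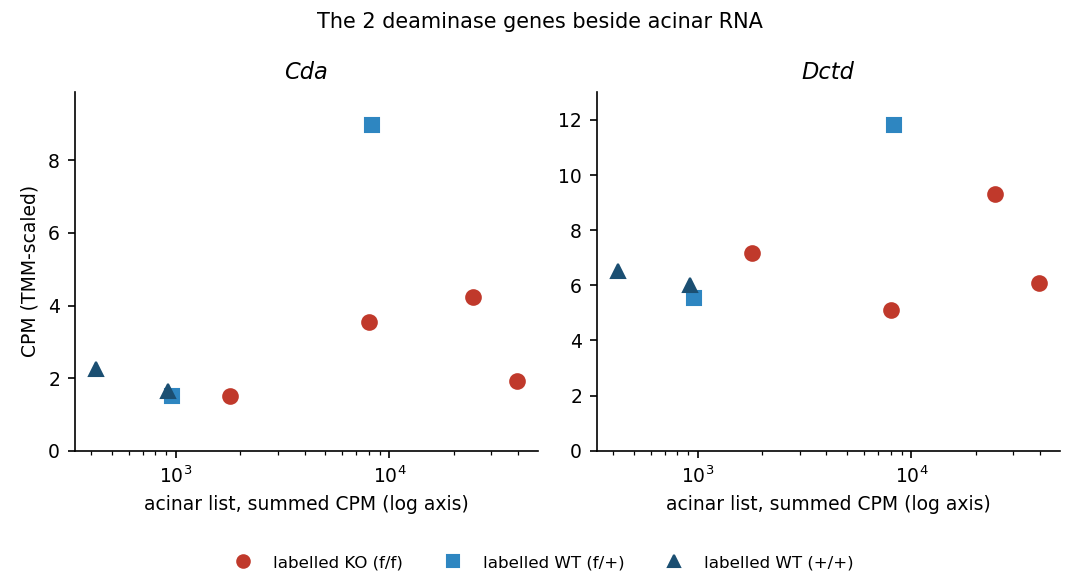
Cda and Dctd (TMM-scaled CPM, vertical axes) beside the summed CPM of the acinar list (log axis) in each of the 8 tumours. WT replicate 2 is the highest point in both panels, at 8.99 CPM for Cda and 11.8 CPM for Dctd, while the tumour with the most acinar RNA, KO replicate 1, is not high in either. KO replicate 3, at 24696 CPM of acinar markers, is the highest of the tumours labelled KO in both panels.

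Rrm2b, on chromosome 15 (37923953 to 37961055, minus strand), encodes the small subunit of ribonucleotide reductase that p53 induces and that supplies deoxynucleotides outside S phase. It was the steadiest of the 10, at 17.8, 15.3, 16.2 and 14.6 CPM in the tumours labelled KO and 16.7, 16.3, 15.6 and 14.2 CPM in those labelled WT. The ranges nearly coincided. The log2 fold change was 0.027 ± 0.10 (SE, 95% interval -0.21 to 0.26; edgeR adjusted p = 0.875).

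**Figure D4:**
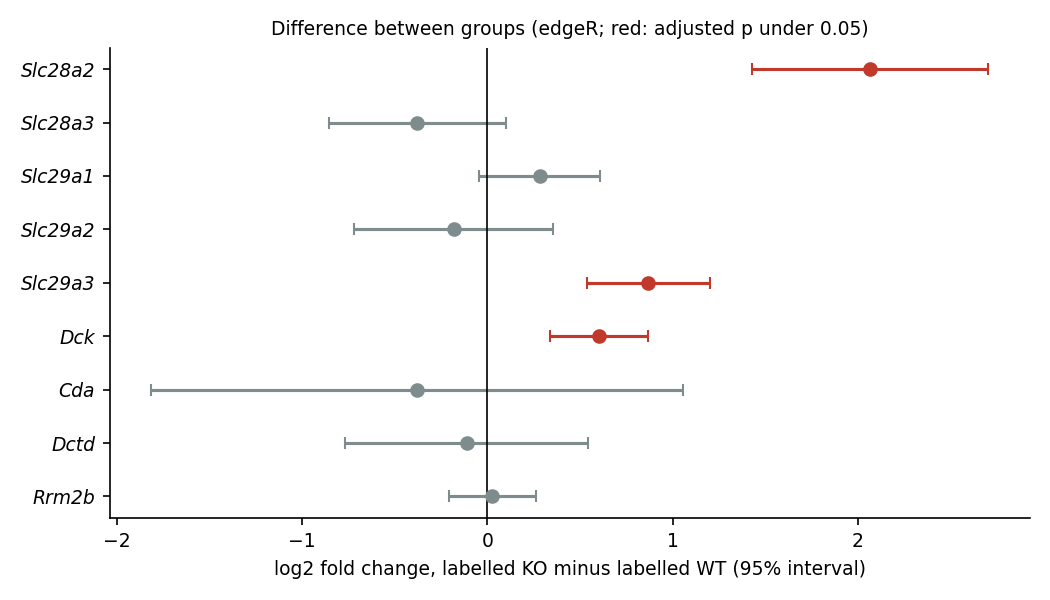
Log2 fold change of the 9 tested genes, labelled KO minus labelled WT (points, edgeR), with 95% intervals (bars) and red for an adjusted p under 0.05. The intervals of Slc28a2, Slc29a3 and Dck lie above 0, and that of Cda is the widest, from -1.81 to 1.06.

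Per kilobase of the counted transcript, Slc29a1 was the most abundant of the 10, at 53.9 ± 7.36 CPM per kilobase in the tumours labelled KO and 44.3 ± 7.40 in those labelled WT (SD, n = 4 each), and it was above Slc29a3 in 8 of 8 tumours. The ranks below it differed between the labels. In the tumours labelled KO, Slc29a3 followed at 21.9 ± 1.71 and Dck at 17.5 ± 2.49 CPM per kilobase, and then came Slc28a3 at 8.51 ± 1.72 and Slc28a2 at 7.37 ± 1.34. Dck was above Slc28a3 in all 4 of these tumours, whereas Slc28a3 was above Slc28a2 in 2 of 4. In the tumours labelled WT, Slc29a3 at 12.02 ± 2.54, Dck at 11.5 ± 1.03 and Slc28a3 at 11.1 ± 3.06 CPM per kilobase differed by less than their spread. Slc28a2 was the lowest tested member there, at 1.77 ± 0.620 CPM per kilobase, below Slc29a2 at 2.36 ± 0.691. Cda had 3.49 ± 1.62 under the label KO and 4.48 ± 4.49 under WT, and Rrm2b had 3.55 ± 0.307 and 3.48 ± 0.241 CPM per kilobase. Cda exceeded Rrm2b in 3 of 8 tumours, so the order of this pair did not hold. Over all 8 tumours Slc28a1 averaged 0.015 CPM per kilobase. Over the same 8, the mean deposited FPKM values gave the same order as the mean counts per kilobase, except that Dctd stood above Rrm2b. Dctd was held on transcripts of unlike length, 2695 bases for the counts and 1849 bases for the FPKM values.

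The 2 genotypes pooled under the label WT were also set against each other. Slc28a2 averaged 8.04 CPM in the 2 f/+ tumours and 5.68 in the 2 +/+ tumours, Slc29a3 averaged 61.8 and 64.0, and Dck averaged 33.3 and 36.9. None of the 9 members tested was called between f/+ and +/+ (edgeR, adjusted p under 0.05), and none had an unadjusted p under 0.05. Over all 15284 genes, 1 was called (0.00654%), BC018473, and 782 had an unadjusted p under 0.05. Set against each control genotype alone, with the same KO libraries in both comparisons, Slc28a2 had a log2 fold change of 1.83 over f/+ (edgeR adjusted p = 0.0191) and 2.35 over +/+ (adjusted p = 0.0303). Slc29a3 had 0.90 over f/+ (edgeR adjusted p = 0.0262) and 0.85 over +/+ (adjusted p = 0.0460). Dck had 0.68 over f/+ (edgeR adjusted p = 0.0261) and 0.53 over +/+ (adjusted p = 0.0663), so its call did not hold against the +/+ tumours alone.

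The 3 called genes were read beside the macrophage markers, which also separated the groups. For replicates 1 to 4, the macrophage list summed to 30055, 29168, 23006 and 27926 CPM under the label KO. Under the label WT it summed to 12376, 9042, 8762 and 15929 CPM. Lyz2 alone averaged 11718 CPM of a mean sum of 27539 under the label KO, and 4296 of 11527 under WT. The sums thus weigh the most abundant markers most. Within the labels the order was mixed. WT replicate 3, with the lowest macrophage sum, had the lowest Slc28a2 and Slc29a3, but the lowest Dck was in WT replicate 2. KO replicate 1, with the highest sum, had the lowest Slc28a2 of its label, and the highest Slc28a2 under the label WT was in replicate 1, not in replicate 4 with the highest sum. Per 1000 CPM of the macrophage list, Slc28a2 stood at 0.742 to 1.17 under the label KO against 0.389 to 0.793 in those labelled WT, which overlapped. On the same scale Slc29a3 was 3.84 to 4.67 against 4.97 to 6.19, and Dck was 1.65 to 2.15 against 2.39 to 4.08, so both lay lower in the tumours labelled KO. When all libraries were scaled to the macrophage list, an alternative chosen after seeing the data, Slc28a2 had a log2 fold change of 0.81 (edgeR adjusted p = 0.018), Slc29a3 -0.40 (adjusted p = 0.0922) and Dck -0.72 (adjusted p = 0.0106), while the median over all genes moved to -1.31 and 12965 of the 14728 genes were called. This scaling shifts all genes alike, so genes already called higher before it keep their place above that median. That all 3 values lay above the median is therefore no further result about macrophage RNA. Scaled to the epithelial list instead, 6 members were called, all higher, with 10922 genes called and the median over all genes at 0.852. The part of macrophage RNA in these results was not tested.

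**Figure D5:**
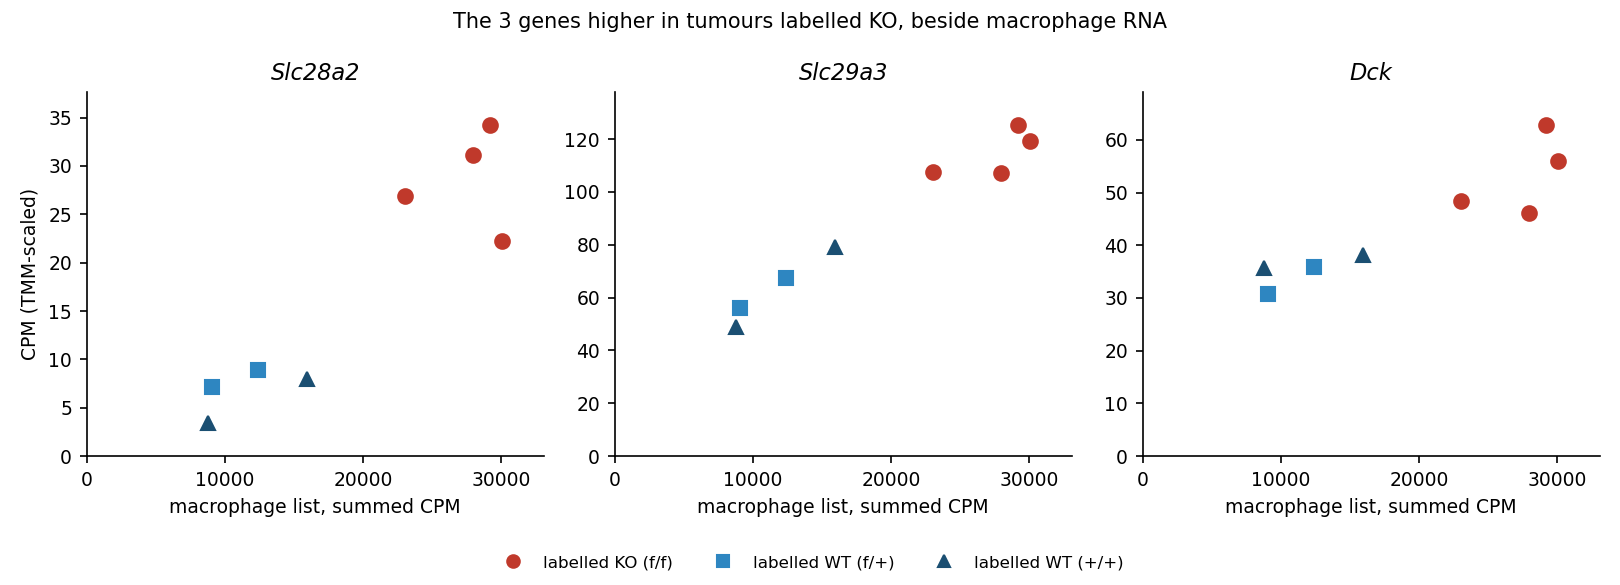
Slc28a2, Slc29a3 and Dck (TMM-scaled CPM, vertical axes) beside the summed CPM of 16 macrophage markers (horizontal axes) in each of the 8 tumours, by genotype. The 4 tumours labelled KO lie at 23006 to 30055 CPM of macrophage markers and above all 4 labelled WT in each gene.

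The genes whose pattern over the 8 tumours was most like that of Slc28a2 were Ccr2, Stab1 and Tlr1. Likeness was the root mean square difference of log2 CPM centred on each gene's mean, over 13087 genes averaging 1 or more in log2 CPM, where smaller is more alike. It was 0.085 for Ccr2, a chemokine receptor of monocytes, 0.205 for Stab1, a scavenger receptor of macrophages, and 0.226 for Tlr1, a receptor for bacterial lipopeptides, against a median of 1.14. Ccr2 averaged 690 CPM in the tumours labelled KO and 170 in those labelled WT, and it is itself 1 of the 16 macrophage markers. These likenesses are descriptions across libraries that share the group difference.

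Other enzymes of nucleotide handling were read from the same fit. Among 15 nucleoside and nucleotide kinases, 3 were called higher and none lower, a share near the 21.8% called over all genes tested. Their median log2 fold change was 0.16 beside 0.011 for all genes. Nme4, a mitochondrial nucleoside diphosphate kinase, had 9.58 ± 1.68 CPM under the label KO and 5.70 ± 0.246 CPM under WT (SD, n = 4 each), with a log2 fold change of 0.75 ± 0.15 (SE; edgeR adjusted p = 0.0117). Cmpk2, a mitochondrial kinase induced by interferon, had a log2 fold change of 1.43 ± 0.42 (SE) and Nme2 one of 0.21 ± 0.06 (SE). The call of Nme2 was lost without any 1 of the 8 tumours, and that of Cmpk2 without any 1 of 6 of them.

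Of 16 nucleotidases and salvage enzymes, 14 were tested, 2 were called higher and 1 lower, with a median log2 fold change of -0.084. The share called was again near the 21.8% over all genes tested. Samhd1, which hydrolyses deoxynucleoside triphosphates, was at 378 ± 57.3 CPM in the tumours labelled KO and 186 ± 21.0 in those labelled WT (SD, n = 4 each), without overlap. Its log2 fold change was 1.02 ± 0.13 (SE; edgeR adjusted p = 0.0044). Entpd1, the ectonucleotidase CD39, rose by a log2 fold change of 1.0 ± 0.18 (SE; edgeR adjusted p = 0.00851). Nt5e, the ectonucleotidase CD73 that makes adenosine from AMP, fell by 1.06 ± 0.29 on the log2 scale (SE; edgeR adjusted p = 0.0307), a call lost without any 1 of 5 tumours.

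None of the 6 ribonucleotide reductase and thymidylate genes was called by edgeR, DESeq2 called none either, and 1 had an unadjusted p under 0.05 (edgeR). That gene was Rrm2, the S-phase small subunit, at 30.1 ± 5.42 against 22.8 ± 2.83 CPM (SD, n = 4 each; log2 fold change 0.40 ± 0.14, SE; edgeR adjusted p = 0.0804). Of 5 genes of new pyrimidine synthesis, Ctps, CTP synthase, was called lower, with a log2 fold change of -0.57 ± 0.17 (SE; edgeR adjusted p = 0.0419), a call lost without any 1 of 6 tumours. Of 9 drug efflux pumps none was called by edgeR and 3 had an unadjusted p under 0.05, while DESeq2 called Abcb1a and Abcc3 lower. The smallest p values belonged to Abcb1a, the P-glycoprotein gene (log2 fold change -0.85 ± 0.29, SE; edgeR adjusted p = 0.0661), and Abcc3 (-0.55 ± 0.20, SE; edgeR adjusted p = 0.0796).

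Genes listed as p53 targets and genes of proliferation were read beside Rrm2b and Dck. All mice carried Trp53f/f and Pdx1-Cre, and whether p53 was active in the sorted cells was not tested. Of 21 p53 targets, 6 were called higher and 3 lower, with a median log2 fold change of 0.12. Sesn1, a stress-induced regulator of growth signalling, had a log2 fold change of 1.35 ± 0.22 (SE), and Fas, a death receptor, 1.05 ± 0.20 (SE). Bax, a pro-apoptotic protein, had 0.34 ± 0.07 (SE), and Perp, a desmosomal protein, -1.08 ± 0.20 (SE). Of 18 proliferation genes, 12 were called higher and none lower, with a median of 0.56. The replication helicase genes Mcm3, Mcm5 and Mcm6 had log2 fold changes of 0.63 ± 0.07, 0.68 ± 0.10 and 0.62 ± 0.11 (SE). The other subunits of that helicase had 0.36 (Mcm2), 0.12 (Mcm4, edgeR adjusted p = 0.362) and 0.12 (Mcm7, adjusted p = 0.322), so Mcm4 and Mcm7 were not called. The cycling-cell marker Mki67 had 0.65 ± 0.12 (SE). With library totals alone, without TMM, the median over all genes moved to -0.165, and 6 proliferation genes, 3 p53 targets (Sesn1, Fas and Plk2) and 1 kinase (Nme4) were called higher. On that scale 4 efflux pumps (Abcb1a, Abcc1, Abcc3 and Abcc4) were called lower, and Slc28a2, Slc29a3 and Dck stayed called.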

How the data were processed

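RNA sequencing of 8 tumours (4 labelled KO, 4 labelled WT, grouped by title) was analysed from 2 tables that the authors deposited. Per the file headers, HOMER made the raw counts over exons of RefSeq gene models in mm10, reading the plus strand and reporting each gene by 1 transcript. The FPKM table came from HOMER too, normalized to 1000000, per the file headers. Tools listed in the submitters' processing notes, with no role or order, are STAR 2.4.0k, edgeR 3.6.8, FastQC 0.11.2 and HOMER. Whether the libraries were stranded is not given in the sources used here, so antisense partners may share reads, as may near-identical copies. The kept transcript differed between the tables for 2 of the 10 members, Slc29a1 and Dctd. The tables held 0 columns of other samples and 0 rows without a gene name. Counts in genes were 73.5% to 80.2% of the totals in the headers.

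The main test was edgeR 4.0.16 in R 4.3.3 (glmQLFit and glmQLFTest on TMM-scaled counts). Genes were kept by filterByExpr with a minimum total of 15 and a minimum count of 10, with all genes in 1 fit and Benjamini-Hochberg adjustment over all of them. A gene was called at an adjusted p under 0.05. TMM factors were 0.890 to 0.965 for the tumours labelled KO and 1.05 to 1.10 for those labelled WT. The script was tested on simulated data. The 3 genotypes were compared in a second fit to all 8 tumours. Alternatives were DESeq2 1.42.0, library totals, epithelial scaling, no count filter, control subsets, floxed alleles as a linear term, each tumour left out, and limma 3.58.1 on log2(FPKM + 1) or log2(FPKM + 0.1). Intervals cover 95% and, like the limit of 3 counts for a count of 0, do not cover errors of the library itself. Chi-square tests between libraries of a group gave at least 30.7 per degree of freedom, so none was a copy of another. Replicate numbers are names in listing order, and the labels do not say more of the mice than 1 tumour each.

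Named genes were all members, Lifr and Epcam, up to 4 called genes with the smallest p from each pathway list (or the 2 smallest p where nothing was called), and the 3 genes nearest to the member called with the smallest p. The members, lists and tests were chosen with earlier results of these data known. Promoter windows came from a RefSeq table of GRCm38.p6, and Rrm2b had none there. Some results that the rule would name are not reported here.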

Additional observations from a re-analysis of the deposited data

Results flagged for a closer look

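In 92 groups of 4 tumours examined, 7 had 1 tumour far from the other 3, and chance alone gives about 1 in 20 such groups. Among the members, Cda was at 8.99 CPM in WT replicate 2 and 1.51 to 2.24 CPM in the other 3 tumours labelled WT. Dctd was at 11.8 CPM in the same tumour and 5.52 to 6.50 CPM in the others. That tumour was also the lowest of its group in Nt5e (152 CPM, against 344 to 364) and in the summed pan-leukocyte markers (1620 CPM, against 2330 to 2450), and the highest in the summed acinar markers (8270 CPM, against 420 to 955). Abcb1a was at 33.3 CPM in WT replicate 1, above 21.7 to 23.0 CPM in the others labelled WT. Samhd1 was at 463 CPM in KO replicate 2, above 343 to 354 CPM in the others labelled KO.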

How the results depend on the processing

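Slc28a2, Slc29a3 and Dck were called, higher in the tumours labelled KO, when each tumour in turn was left out, with DESeq2, with library totals, without a count filter and with limma on FPKM values. Leaving out 1 tumour gave log2 fold changes of 1.84 to 2.22 for Slc28a2, 0.76 to 0.999 for Slc29a3 and 0.52 to 0.66 for Dck, and 3 members called each time. With floxed alleles as a linear term, 1 member was called (Slc28a2, adjusted p = 0.0498), with 0.0730 for Slc29a3 and 0.101 for Dck. With +/+ controls only, 2 members were called. With scaling to the epithelial list, 6 members were called, Slc29a1, Dctd and Rrm2b being added. With macrophage scaling, an alternative chosen after seeing the data, 8 members were called, 1 higher and 7 lower, among 12965 of all 14728 genes. Over all genes, 3216 were called, against 10922 with epithelial scaling, 1038 with +/+ controls only, 2036 with f/+ controls only, 47 with the linear term, 1892 without KO replicate 1 and WT replicate 2, and 1755 to 3241 when 1 tumour was left out (1755 without KO replicate 2, 2077 without WT replicate 3). The causes were not tested, and the fits that leave tumours out also hold fewer samples. Both list scalings shift all genes alike, to a median log2 fold change of 0.852 (epithelial) or -1.31 (macrophage), and the sign turns under them are read beside these medians. With epithelial scaling, the log2 fold changes became 0.45 for Slc28a3, 0.63 for Slc29a2, 0.61 for Cda, 0.76 for Dctd, 0.28 for Ctps and 0.31 for Abcc3. With macrophage scaling they became -1.02 for Slc29a1, -0.40 for Slc29a3, -0.72 for Dck and -1.31 for Rrm2b. Other signs turned as follows. With +/+ controls only, Cda had 0.51 and Dctd 0.15, and with the linear term 0.18 and 0.062. Leaving out 1 tumour at a time gave -0.65 to 0.62 for Cda, -0.28 to 0.20 for Dctd and -0.041 to 0.059 for Rrm2b. Without WT replicate 2, Cda had 0.62 and Dctd 0.20, and without KO replicate 2 Dctd had 0.0080. Without both KO replicate 1 and WT replicate 2, Cda had 0.77, Dctd 0.26 and Rrm2b -0.010. Rrm2b had -0.15 with library totals, -0.042 with f/+ controls only, -0.041 without KO replicate 1, -0.0167 without WT replicate 4, -0.10 on log2(FPKM + 1) and -0.14 on log2(FPKM + 0.1). No paired analysis was possible because the labels give the tumours no shared replicate numbers. Among the tested members the standard error was largest for Cda (0.63).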

Other observations

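Slc29a4, the remaining gene of the Slc29 family, encodes a transporter of monoamines and adenosine. It is not among the 10 members and was chosen after its values were seen. It was at 4.42 ± 1.57 CPM in the tumours labelled KO and 8.95 ± 2.16 CPM in those labelled WT (SD, n = 4 each), and the groups did not overlap. Its log2 fold change was -1.01 ± 0.29 (SE; edgeR adjusted p = 0.0368). The call was lost without any 1 of 6 tumours, at an adjusted p of up to 0.101, and with +/+ or f/+ controls alone.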
